A study of Mus musculus with 4 samples.

Results

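Prostaglandin and leukotriene synthesis was followed through 10 genes, chosen by symbol from the 46603 genes listed: the cyclooxygenases Ptgs1 and Ptgs2, the prostanoid synthases Ptges, Ptgis, Ptgds and Tbxas1, and the lipoxygenase genes Alox5, Alox5ap, Alox15 and Ltc4s. All 10 were found. The mice were C57Bl6/J, 8 to 12 weeks old, and P2Y6-null (KO), lacking the nucleotide receptor P2Y6, or wild type (WT), and RNA was taken from their heart ventricles. Mice of each genotype received an intraperitoneal injection on each of 7 days, of saline or of 50 mg/kg/day isoproterenol, a beta-adrenergic agonist known to enlarge the heart. The 4 groups, KO isoproterenol, WT isoproterenol, KO saline and WT saline, held 1 library each. Whether a library came from 1 heart or a pool, and how the null allele was made, is not given in the sources used here.

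Phospholipase A2 frees arachidonic acid from membranes, and cyclooxygenases turn it into prostaglandin H2. Terminal synthases then make prostaglandin E2, prostacyclin, prostaglandin D2 or thromboxane A2, which act on their own receptors. In the other branch 5-lipoxygenase, presented with its substrate by the activating protein encoded by Alox5ap, makes leukotriene A4, which leukotriene C4 synthase conjugates with glutathione. In the heart prostacyclin is known as a vasodilator made by vascular and stromal cells, and leukotrienes mainly as products of leukocytes.

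The libraries held 18771198, 20721472, 22965087 and 25637369 reads (KO isoproterenol, WT isoproterenol, KO saline and WT saline). P2ry6, the disrupted gene, stood at 0.533 CPM in KO and 5.89 CPM in WT under isoproterenol, and at 0.566 CPM in KO and 5.11 CPM in WT under saline, so it was low in both KO libraries. CPM scales each gene's reads to a library of 1000000. The ventricular markers Myl2 and Irx4 were present in all libraries (Irx4 between 36.1 and 45.5 CPM), and the atrial markers Myl7 and Sln were detected too (Myl7 between 49.1 and 77.0 CPM). Ratios between libraries are of reads scaled by TMM, with a 95% counting interval in brackets, and a gene was called higher or lower when the whole interval lay beyond 1.5-fold. Since each group is a single library, differences within a pair have no replicate check and carry no p-value. The intervals compare these libraries, not the conditions, and cover counting error only. Of the 10 genes, 9 reached the mean of 10 reads needed for calling, as did 14301 of all genes. Scaling by total reads in place of TMM shifted the median over all genes by 0.18 (log2) in the KO pair and 0.21 between genotypes under isoproterenol, and the share of calls that were higher became 80.2% (62.7% with TMM), 90.3% (69.9%) and, in the WT pair, 40.6% (51.9%).

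After isoproterenol the KO library had 3 of the 9 genes called, against 11.3% of all genes tested. Ptgis was higher, against 7.09% of all genes, and Alox5 and Ptgds were lower, against 4.22%. The WT pair had 1 of 9 called, Alox5, which was lower, against 1.66% of all genes called, 0.860% higher and 0.797% lower. Under isoproterenol Ptgis was called higher in KO than in WT, 1 of 9 against 6.0%, with 4.20% called higher and 1.80% lower, and under saline Ptgds was, 1 of 9 against 0.489%, with 0.273% called higher and 0.217% lower. The median log2 ratio of the 9 genes was 0.50 in the KO pair, −0.19 in the WT pair, 0.40 for KO against WT under isoproterenol and −0.07 under saline, beside 0.00 over all genes tested. The 4 pairs share libraries, so a level in 1 library enters 2 of them.

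Upstream sequence is shown for Alox5 and Ptgds, called genes with an entry in the RefSeq promoter table (GRCm38.p6), which held 7 of the 10 genes and no entry for Ptgis, Alox5ap and Alox15. Each line gives the 250 bases before the annotated start, 5′ to 3′ on the gene's own strand, which is the minus strand for both. They lie at chr6:116461179-116461428 for Alox5 and chr2:25469750-25469999 for Ptgds. For Ptgds the GENCODE gene extends past this RefSeq start, and the window lies within that gene. The Ptges and Tbxas1 windows described below also lie within their GENCODE genes. Capitals mark the letters of a GC box (GGGCGG) in Alox5 and of an AP-1 motif (TGANTCA) in Ptgds.
Alox5: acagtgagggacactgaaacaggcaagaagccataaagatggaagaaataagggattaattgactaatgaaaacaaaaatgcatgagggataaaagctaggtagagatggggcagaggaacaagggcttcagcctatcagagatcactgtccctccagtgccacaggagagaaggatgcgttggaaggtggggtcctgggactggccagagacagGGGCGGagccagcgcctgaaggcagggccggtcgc
Ptgds: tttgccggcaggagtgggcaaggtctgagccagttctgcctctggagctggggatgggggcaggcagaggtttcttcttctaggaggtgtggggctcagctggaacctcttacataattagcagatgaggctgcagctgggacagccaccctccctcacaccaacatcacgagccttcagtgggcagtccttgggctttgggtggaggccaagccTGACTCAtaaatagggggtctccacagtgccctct
The motifs were searched on both strands, and each match begins 35 bases before the start. Of 32841 promoter windows of the same length 32.8% hold a GC box and 6.75% a match to TGANTCA, where N is any base, so the GC box is common. Ptgs2 and Ptges windows also hold a GC box. That of Tbxas1 holds TGATTCA, which fits TGANTCA with another middle base than in Ptgds, and a TATA box (TATAAA, in 12.4% of windows). The cyclic AMP response element TGACGTCA (1.55% of windows), the shorter motif TGACGT, which lies within it (6.47%), and the E-box CACGTG (6.02%) were found in none of the 7 windows. A match is only a description of letters. Sequence outside these 250 bases was not searched, so a motif absent from a window may lie beyond it.

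**Figure D1:**
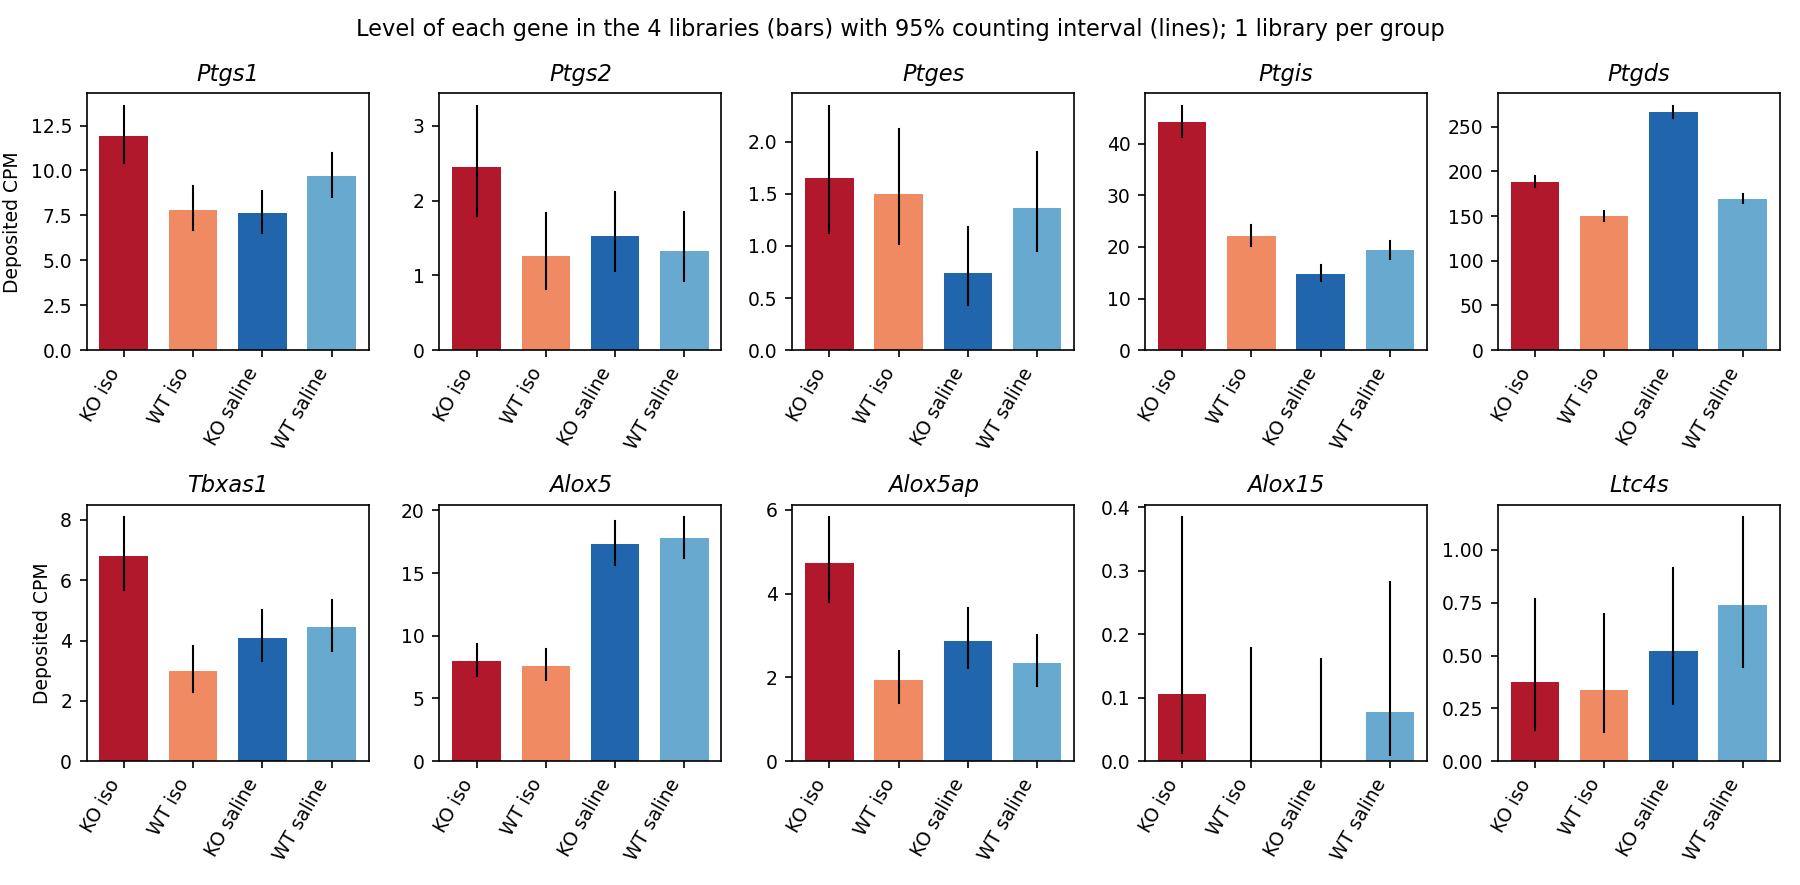
Deposited CPM of each of the 10 genes (bars, y axis, starting at 0) in the KO isoproterenol, WT isoproterenol, KO saline and WT saline libraries, with 95% Poisson counting intervals (lines); iso is isoproterenol. Alox5 is low in both isoproterenol libraries, Ptgis is high in the KO isoproterenol library, and Ptgds is high in the KO saline library.

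Cyclooxygenases carry out the first committed step, and neither gene was called in any pair. Ptgs1, the constitutive isoform (ENSMUSG00000047250, GRCm38 chromosome 2, 36230426 to 36252272), had 11.9 CPM (224 reads) in KO and 7.82 CPM (162 reads) in WT under isoproterenol. Under saline it had 7.62 CPM (175 reads) in KO and 9.67 CPM (248 reads) in WT. The KO isoproterenol library was thus the highest for Ptgs1. The ratio of isoproterenol to saline was 1.38-fold (1.13 to 1.69) in KO and 0.855 (0.696 to 1.05) in WT. The KO response was 1.61-fold the WT response (1.22 to 2.13), beyond counting error but not beyond 1.5-fold over the whole interval. Ptgs2, the inducible isoform (chromosome 1, 150100031 to 150108227), was scarce, with 2.45 CPM (46 reads) in KO and 1.25 CPM (26 reads) in WT under isoproterenol. Under saline it had 1.52 CPM (35 reads) in KO and 1.33 CPM (34 reads) in WT. Its intervals were wide, 0.893 to 2.27 around 1.41 in the KO pair and 0.576 to 1.72 around 1.0 in the WT pair.

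Among the terminal synthases, Ptgis and Ptgds were the genes with calls, and they also had the most reads. Ptgis (ENSMUSG00000017969, chromosome 2, 167191805 to 167240604), which makes prostacyclin, had 44.3 CPM (831 reads) in KO and 22.2 CPM (460 reads) in WT under isoproterenol. Under saline it had 14.8 CPM (341 reads) in KO and 19.3 CPM (496 reads) in WT. The KO isoproterenol library thus stood above the other 3 libraries, and the KO saline library was the lowest. Isoproterenol was 2.63-fold (2.31 to 2.99) over saline in KO and 1.21-fold (1.07 to 1.38) in WT, so that only the KO pair was called. KO was 1.72-fold over WT (1.53 to 1.93) under isoproterenol, where it was called, and 0.795 of WT (0.690 to 0.914) under saline, where it was not. The KO response was 2.16-fold the WT response (1.81 to 2.59), the single call among the 9 genes for the difference of responses, against 5.57% of all genes, with 3.83% called higher and 1.73% lower. That difference has no error term in this design and was not tested. Every Ptgis call includes the same KO isoproterenol library. An antisense transcript, 1110018N20Rik, shares 156 exon bases with Ptgis and stood between 1.92 and 2.85 CPM.

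Markers of stromal cells were high in the same library as Ptgis. The 6 fibroblast markers summed to 1906 CPM in KO and 1070 CPM in WT under isoproterenol. Under saline they summed to 837 CPM in KO and 922 CPM in WT. In the KO pair 4 of 6 were called higher, against 7.09% of all genes, and in the WT pair 1 of 6, against 0.860%. In the KO pair those were Dcn, Lum, Col15a1 and Dpt, which encode extracellular matrix proteins, and not the defining markers Pdgfra and Tcf21. The 6 mesothelial and epicardial markers summed to 19.5 CPM in KO and 11.3 CPM in WT under isoproterenol. Under saline they summed to 10.4 CPM in KO and 11.6 CPM in WT. In the KO pair 1 of 6 was called higher, against 7.09% of all genes. No defining marker of either list was at 0, and their part in the Ptgis result was not tested. In whole ventricle a change in the number of cells of a type and a change in RNA per cell cannot be told apart. Endothelial markers were called in none of the 4 pairs, where between 0.489% and 11.3% of all genes were. They summed to 882 CPM in KO and 847 CPM in WT under isoproterenol, and to 902 CPM in KO and 941 CPM in WT under saline. Smooth muscle and pericyte markers summed to 1313 CPM in KO and 1342 CPM in WT under isoproterenol, and to 1380 CPM in KO and 1492 CPM in WT under saline. Of these 7 markers 2 were called higher and 1 lower in the KO pair, against 7.09% and 4.22% of all genes. In the WT pair 0 were called, against 1.66%. Under isoproterenol 2 were called lower in KO than in WT, against 1.80% of all genes. The part of these vascular lists in the Ptgis result was not tested either.

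Ptgds (ENSMUSG00000015090, chromosome 2, 25466709 to 25470046) encodes the lipocalin-type enzyme that makes prostaglandin D2. It had 188 CPM (3536 reads) in KO and 150 CPM (3113 reads) in WT under isoproterenol, and 267 CPM (6124 reads) in KO and 170 CPM (4347 reads) in WT under saline. The KO saline library stood above the other 3. Under saline KO was 1.63-fold over WT (1.57 to 1.69), which was called, and under isoproterenol 1.08-fold (1.03 to 1.14). In the KO pair isoproterenol was lower than saline by 1.61-fold (1.54 to 1.67), a call that total-count scaling ends (log2 ratio −0.50, against −0.68 with TMM). The WT pair was lower by 1.07-fold (1.02 to 1.12). The KO response was 0.665 of the WT response (0.625 to 0.707), beyond counting error but not beyond 1.5-fold over the whole interval. That difference was not tested. Both Ptgds calls rest on the same KO saline library. Ptgds took most of the reads of the 10 genes: 70.1% (68.8 to 71.4, Clopper-Pearson) in KO and 76.7% (75.4 to 78.0) in WT under isoproterenol, and 84.3% (83.5 to 85.2) in KO and 74.8% (73.7 to 75.9) in WT under saline.

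Under saline the marker lists with calls between KO and WT were those of atrial and adipocyte markers, with the calls lower in KO. Atrial markers summed to 142 CPM in KO and 225 CPM in WT under saline. There 2 of 7 were called lower in KO, against 0.217% of all genes. Under isoproterenol they summed to 256 CPM in KO and 178 CPM in WT. There 1 of 7 was called higher in KO, against 4.20% of all genes. In the KO pair 3 of 7 were called higher, against 7.09%, and in the WT pair 1 of 7, against 0.860%. The defining markers Myl7 and Sln were called in no pair. Like Ptgis, the atrial sum was highest in the KO isoproterenol library and lowest in the KO saline library. Adipocyte markers summed to 2.74 CPM in KO and 6.12 CPM in WT under saline. There 1 of 3 tested was called lower in KO, against the same 0.217%. Under isoproterenol they summed to 3.73 CPM in KO and 9.02 CPM in WT. There 2 of 3 tested were called lower in KO, against 1.80% of all genes. Smooth muscle and pericyte markers had none of 7 called under saline, against 0.489% of all genes. The part of these lists in the Ptgds result, and of the atrial list in the Ptgis result, was not tested.

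Tbxas1 (ENSMUSG00000029925, chromosome 6, 38875404 to 39084585) makes thromboxane A2 and is known from platelets and macrophages. It had 6.82 CPM (128 reads) in KO and 2.99 CPM (62 reads) in WT under isoproterenol, and 4.09 CPM (94 reads) in KO and 4.45 CPM (114 reads) in WT under saline. Under isoproterenol the KO library was thus the highest of the 4 and the WT library the lowest. Isoproterenol was 1.47-fold (1.12 to 1.94) over saline in KO, and in WT it was lower by 1.40-fold (1.02 to 1.95). Neither was called, but the directions were opposite and each interval excluded no change. KO against WT was 1.96-fold (1.44 to 2.71) under isoproterenol, which total-count scaling turns into a call, and 0.953 (0.717 to 1.26) under saline. Ptges, the inducible microsomal synthase of prostaglandin E2 (chromosome 2, 30889471 to 30929863), had 1.65 CPM (31 reads) in KO and 1.5 CPM (31 reads) in WT under isoproterenol. Under saline it had 0.740 CPM (17 reads) in KO and 1.37 CPM (35 reads) in WT, and no pair was called (1.94-fold, 1.06 to 3.79, in the KO pair).

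The ratios of all 9 genes are drawn in the plot of the 4 pairs.

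**Figure D2:**
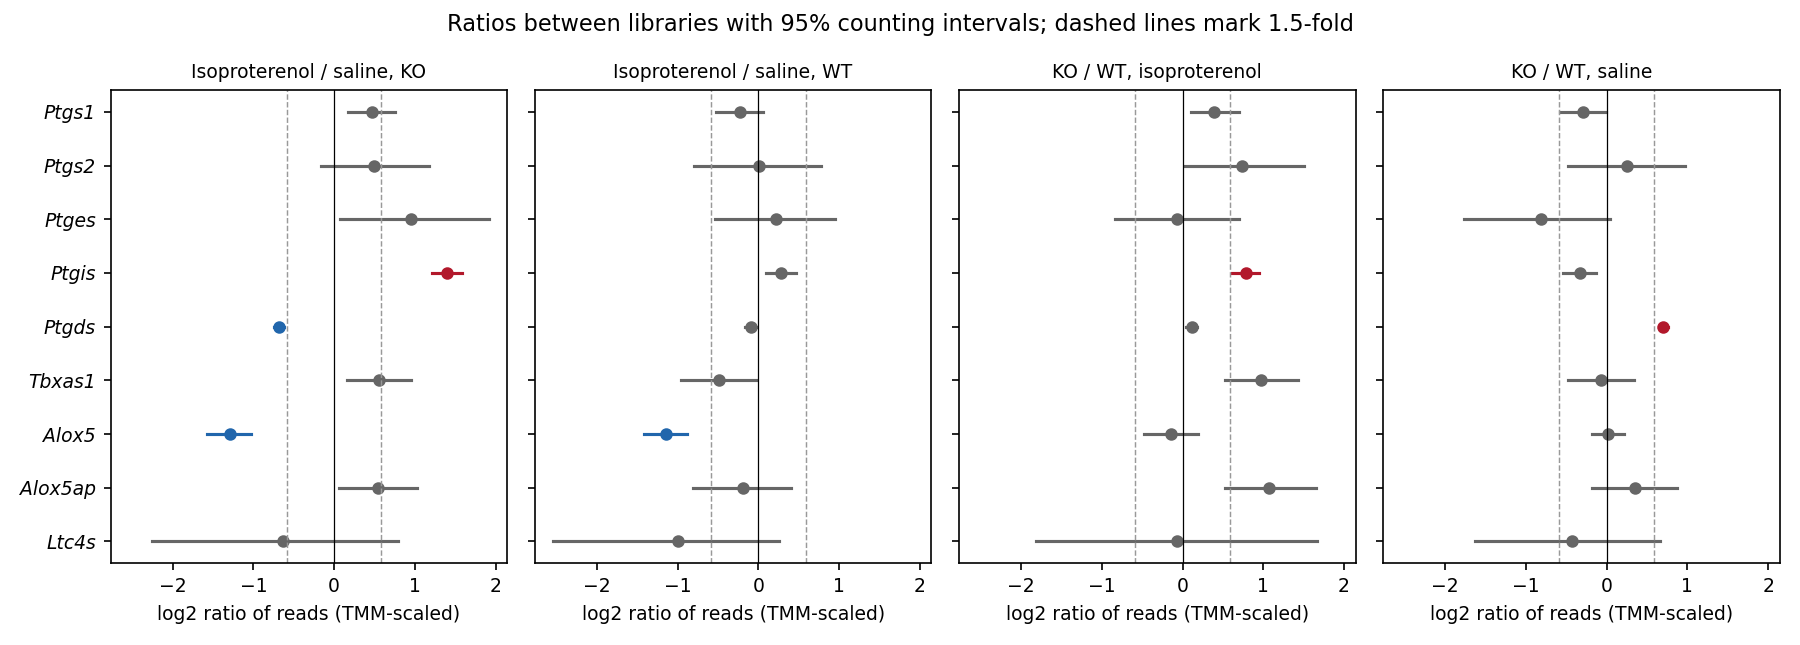
log2 ratio of TMM-scaled reads (x axis) for the 9 genes read often enough for calling (rows), in 4 panels, 1 for each pair of libraries; points are ratios, lines 95% counting intervals, dashed lines 1.5-fold, red a call higher and blue a call lower. Alox5 lies on the lower side in both isoproterenol panels, at −1.30 in KO and −1.14 in WT, while Ptgis is called higher in KO at 1.39.

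The leukotriene branch was led by Alox5, the gene with calls in both genotypes. Alox5 (ENSMUSG00000025701, chromosome 6, 116410077 to 116461178), which encodes 5-lipoxygenase, had 7.99 CPM (150 reads) in KO and 7.62 CPM (158 reads) in WT under isoproterenol. Under saline it had 17.3 CPM (398 reads) in KO and 17.8 CPM (456 reads) in WT. Both treated libraries thus lay below both saline libraries, with genotypes close together under each treatment. Isoproterenol was lower by 2.46-fold (2.03 to 2.99) in KO and by 2.2-fold (1.84 to 2.66) in WT, in pairs that have no library in common. KO against WT was 0.905 (0.719 to 1.14) under isoproterenol and 1.01 (0.879 to 1.16) under saline. The KO response was 0.897 of the WT response (0.691 to 1.16), an interval that leaves room for differences in either direction. Total-count scaling turns the sign of these 3 values, to log2 0.07, −0.04 and 0.11.

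An additive model of genotype and treatment over the 4 libraries has 1 residual degree of freedom per gene, which is the interaction of both. With 1 library per group, its SE and p-values do not measure the spread between replicates of a group. In limma on log2(CPM + 1), Alox5 fell with isoproterenol by 1.08 on the log2 scale (SE 0.233, adjusted p = 0.0140 over all genes, lower in 2 of 2 pairs), and it was 1 of 368 genes called by treatment, 2.57% of those tested. With edgeR's quasi-likelihood test on the reads it had an adjusted p of 0.0622, where 22 genes were called (0.154%), and over all alternatives the adjusted p ran from 0.00113 to 0.0622. Ptgis had a treatment coefficient of 0.85 (SE 0.252, limma adjusted p = 0.0826, from 0.00165 to 0.262 over the alternatives). The other 7 genes had limma adjusted p-values between 0.395 and 0.972 for treatment. By genotype limma called 14 of all genes (0.0979%) and 0 of the 9, of which 2 had an unadjusted p under 0.05, Ptgds at 0.00778 and Alox5ap at 0.0409, while edgeR called 3 of all genes (0.0210%) and 0 of the 9, none with an unadjusted p under 0.05.

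Alox5ap (ENSMUSG00000060063, chromosome 5, 149264767 to 149288153), the partner that presents arachidonic acid to 5-lipoxygenase, did not share the pattern of Alox5. It had 4.74 CPM (89 reads) in KO and 1.93 CPM (40 reads) in WT under isoproterenol, and 2.87 CPM (66 reads) in KO and 2.34 CPM (60 reads) in WT under saline. The KO isoproterenol library was the highest. No pair was called with TMM. KO was 2.10-fold over WT (1.44 to 3.16) under isoproterenol, called with total-count scaling, and 1.27-fold (0.882 to 1.83) under saline. Ltc4s (chromosome 11, 50236461 to 50238616), which makes leukotriene C4, had 7 reads in KO and 7 in WT under isoproterenol (0.373 and 0.338 CPM), and 12 reads in KO and 19 in WT under saline (0.523 and 0.741 CPM). Its ratio in the KO pair was 0.647 (0.210 to 1.73) and in the WT pair 0.503 (0.171 to 1.2), so a change was not detectable at this depth. Alox15 (chromosome 11, 70344152 to 70352031), the 12/15-lipoxygenase of mouse, had 2 reads in KO and 0 in WT under isoproterenol and 0 in KO and 2 in WT under saline. A count of 0 allows up to 3 reads, or 0.145 CPM in the WT isoproterenol and 0.131 CPM in the KO saline library, so no ratio is given.

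Macrophage markers were highest in the library where Alox5ap and Tbxas1 were highest. The 10 macrophage and monocyte markers, among them Adgre1 and Csf1r, summed to 918 CPM in KO and 404 CPM in WT under isoproterenol, and to 370 CPM in KO and 412 CPM in WT under saline. In the KO pair 8 of 10 were called higher (median log2 ratio 1.26), against 7.09% of all genes. In the WT pair 1 of 10 was (0.14), against 0.860%. For KO against WT 8 of 10 were called higher under isoproterenol, against 4.20% of all genes, and 0 of 10 under saline, against 0.273%. The defining marker Csf1r, and Mrc1, were called in no pair. Lyz2 alone gave 445 CPM of the sum in the KO isoproterenol library. Platelet and megakaryocyte markers summed to 17.8 CPM in KO and 12.5 CPM in WT under isoproterenol, and to 12.4 CPM in each genotype under saline. Of 4 tested, 0 were called in any pair, where between 0.489% and 11.3% of all genes were. No defining marker of either list was at 0. Their part in the values of Tbxas1 and Alox5ap was not tested.

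Markers of other leukocytes and of cardiomyocytes are given for Alox5, and their part in its result was not tested. Neutrophil markers summed to 8.84 CPM in KO and 6.90 CPM in WT under isoproterenol, and to 4.49 CPM in KO and 3.90 CPM in WT under saline, with 0 of 3 tested called and the defining marker Ly6g at 0 in all libraries. Mast cell markers (0 of 6 called) summed to 17.5 CPM in KO and 14.9 CPM in WT under isoproterenol, and to 13.3 CPM in KO and 16.3 CPM in WT under saline. Lymphocyte markers (0 of 4 called) lay between 3.18 and 4.47 CPM. Beside these counts of 0, between 0.489% and 11.3% of all genes were called in a pair. Markers of eosinophils and basophils, none with enough reads for calling, lay between 0.0435 and 0.195 CPM with Epx at 0 throughout. Ventricular cardiomyocyte markers summed to 40489 CPM in KO and 48312 CPM in WT under isoproterenol. Under saline they summed to 53245 CPM in KO and 53453 CPM in WT. In the KO pair 3 of 7 were called lower, against 4.22% of all genes, and 0 of 7 in the WT pair, against 0.797%. Those 3 were Myh6, Myl2 and Myl3, with Myh6 alone at 22219 CPM in the KO isoproterenol library. Actn2 and Ryr2 had their highest CPM there, at 2063 and 1445. With TMM, 0 of 7 log2 ratios in the KO pair lay above 0.

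**Figure D3:**
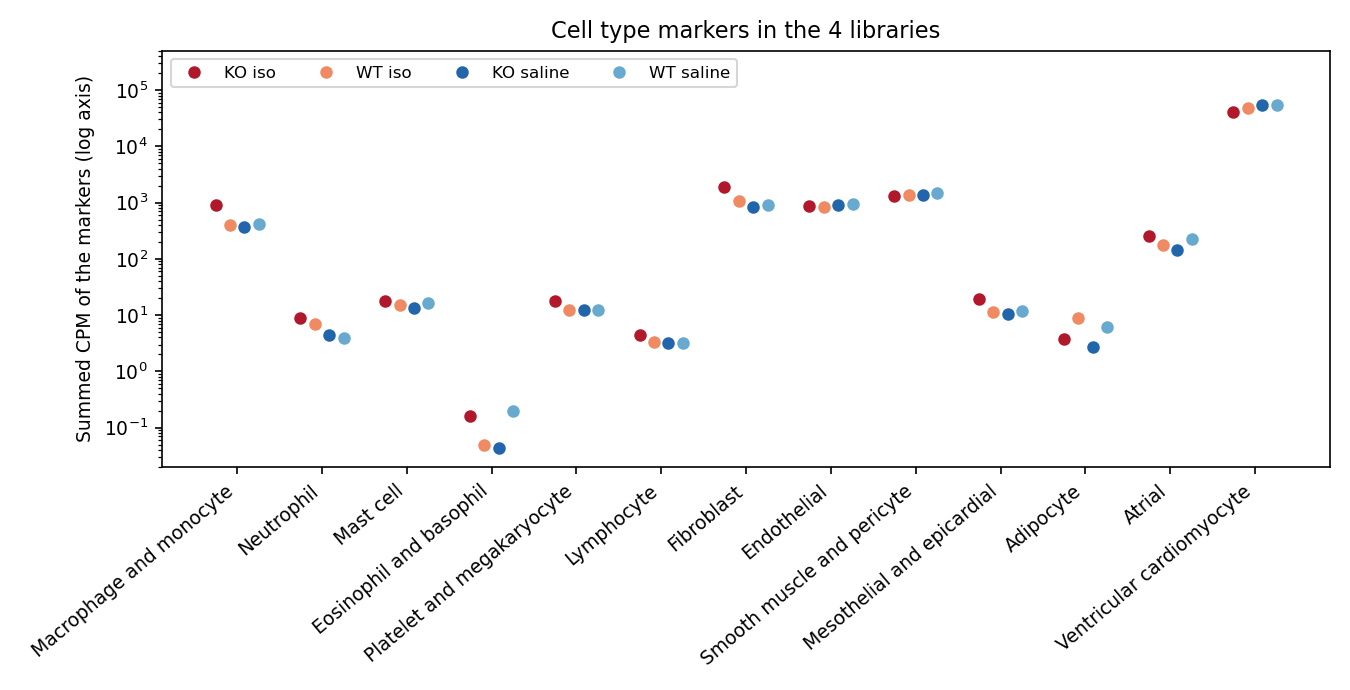
Summed CPM (y axis, log scale) of 13 cell type marker lists (x axis) in the 4 libraries (colours; iso is isoproterenol). Macrophage and fibroblast sums are highest in the KO isoproterenol library, at 918 and 1906 CPM, and the cardiomyocyte sum is lowest there. The neutrophil, mast cell, platelet, lymphocyte, mesothelial and atrial sums are highest there too. These CPM carry no TMM scaling.

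Per length, levels can be compared between the genes. Values were divided by the merged exon length of all annotated transcripts, which may overstate the length of transcripts present in heart, most so for Tbxas1 with 9094 bases. On this scale Ptgds was the highest in every library, at 114 CPM per kilobase in KO and 91.1 in WT under isoproterenol, and 162 in KO and 103 in WT under saline. Ptgis came next, at 17.2 CPM per kilobase in KO and 8.65 in WT under isoproterenol, and 5.78 in KO and 7.54 in WT under saline. Ptgds and Ptgis were thus clear of the other genes in each library beyond counting error. Behind them came Alox5 in both saline libraries, at 4.22 CPM per kilobase in KO and 4.33 in WT, clear of the next gene. In the KO isoproterenol library Alox5ap at 3.34 and Ptgs1 at 3.07 CPM per kilobase, whose intervals overlap, stood above Alox5 at 1.95. In the WT isoproterenol library Ptgs1 at 2.01 and Alox5 at 1.86 CPM per kilobase overlapped, as did Alox5 and Alox5ap at 1.36. Tbxas1, Ptgs2, Ptges and Ltc4s reached at most 0.750 CPM per kilobase in every library, and neighbours among them in that order overlapped.

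By distance between centred log2 profiles over the 4 libraries, the genes nearest to Alox5 were Ctf1, which encodes the cytokine cardiotrophin-1 (distance 0.03), Ovgp1 (0.13) and Gm15704 (0.16). Ctf1 had 2.4 CPM in KO and 2.27 CPM in WT under isoproterenol, and 5.10 CPM in KO and 5.38 CPM in WT under saline. Nearest to Ptgis were the cell cycle transcription factor E2f1 (0.05), S100a10 (0.05), which encodes a partner of annexin A2, and Xylt1 (0.07), an enzyme that starts glycosaminoglycan chains. S100a10 had 55.2 CPM in KO and 26.4 CPM in WT under isoproterenol, and 17.9 CPM in KO and 23.1 CPM in WT under saline. Nearest to Ptgds were Gm11423 (0.05), 2700046G09Rik (0.06) and 2010007H06Rik (0.13), each under 4 CPM. With 4 libraries many genes share a profile, and these names are a description.

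Upstream and downstream of these enzymes, genes of 4 of the 7 lists were called in the KO pair, where 11.3% of all genes were called, and none in the WT pair, where 1.66% of all genes were. Of 10 tested genes of arachidonate release, 1 was called higher and 2 lower in the KO pair, against 7.09% and 4.22% of all genes, and 0 in the WT pair. Pla2g4a, the cytosolic phospholipase A2 that frees arachidonic acid, had 12.9 CPM in KO and 5.50 CPM in WT under isoproterenol, and 4.53 CPM in KO and 5.34 CPM in WT under saline. Like Ptgis it stood highest in the KO isoproterenol library, 2.51-fold over KO saline (1.99 to 3.20) and 2.03-fold over WT (1.62 to 2.56), with a WT ratio of 1.09 (0.841 to 1.41). The calls lower were Pla2g2d, a secreted phospholipase, at 6 reads in KO isoproterenol and 44 in KO saline (lower by 6.35-fold, 2.89 to 19.5), and the monoacylglycerol lipase Mgll, lower by 1.60-fold (1.51 to 1.70). In the WT pair Pla2g2d was lower by 2.2-fold (1.23 to 4.34) and Mgll by 1.48-fold (1.40 to 1.56), and neither was called.

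Of 10 other tested enzymes of the pathway, 2 were called higher in the KO pair, against 7.09% of all genes, and 0 in the WT pair, against 0.860%. Hpgds, the hematopoietic prostaglandin D2 synthase, had 9.70 CPM in KO and 4.2 CPM in WT under isoproterenol, and 4.40 CPM in KO and 4.80 CPM in WT under saline. It thus went opposite to Ptgds in the KO pair, higher by 1.94-fold (1.51 to 2.50), and KO was 1.99-fold over WT (1.54 to 2.60) under isoproterenol. Dpep2, a dipeptidase that converts leukotriene D4, was 3.40-fold higher in the KO pair (2.38 to 5.05) and 2.06-fold over WT under isoproterenol (1.503 to 2.89), and 1.58-fold (1.06 to 2.39) in the WT pair without a call. Part of its exons overlap a second annotated Dpep2 gene and Dus2. Of 2 other lipoxygenases tested, 1 was called lower in the KO pair, against 4.22% of all genes. That was Alox8, with 1 read in KO isoproterenol and 23 in KO saline (lower by 14.5-fold, 3.46 to 879). It had 10 reads in WT isoproterenol and 22 in WT saline, without a call.

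Prostanoid inactivation and transport had 2 of 6 genes called higher in the KO pair, against 7.09% of all genes, and 0 in the WT pair, against 0.860%. Ptgr1, an enzyme that acts on prostaglandins and leukotriene B4, had 6.34 CPM in KO and 3.47 CPM in WT under isoproterenol. Under saline it had 1.92 CPM in KO and 3.16 CPM in WT, a KO ratio of 2.90 (2.05 to 4.22). Slco2a1, the prostaglandin transporter, had 13.6 CPM in KO and 6.90 CPM in WT under isoproterenol, and 5.83 CPM in KO and 5.73 CPM in WT under saline, a KO ratio of 2.06 (1.67 to 2.56). Both are thus highest in the same library as Ptgis. Receptors gave no calls in any pair, for 5 prostanoid receptors and 2 leukotriene and resolvin receptors tested, of 9 and 8 listed. Ptgir, the prostacyclin receptor, named here after its values were seen, had 8.58 CPM in KO and 6.37 CPM in WT under isoproterenol, and 7.71 CPM in KO and 7.22 CPM in WT under saline. The median log2 ratio of isoproterenol to saline was 0.06 in KO and 0.12 in WT over the prostanoid receptors, beside −0.07 in KO and 0.04 in WT over arachidonate release and 0.10 in KO and −0.02 in WT over inactivation and transport. Cmklr1, which binds chemerin and resolvin E1, lay between 18.3 and 22.0 CPM. Of the epoxygenases and epoxide hydrolases 0 of 5 tested were called. Ephx2, the soluble epoxide hydrolase, had 215 CPM in KO and 219 CPM in WT under isoproterenol, and 286 CPM in each genotype under saline. Beside the receptor and epoxygenase lists without calls, between 0.489% and 11.3% of all genes were called in a pair.

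**Figure D4:**
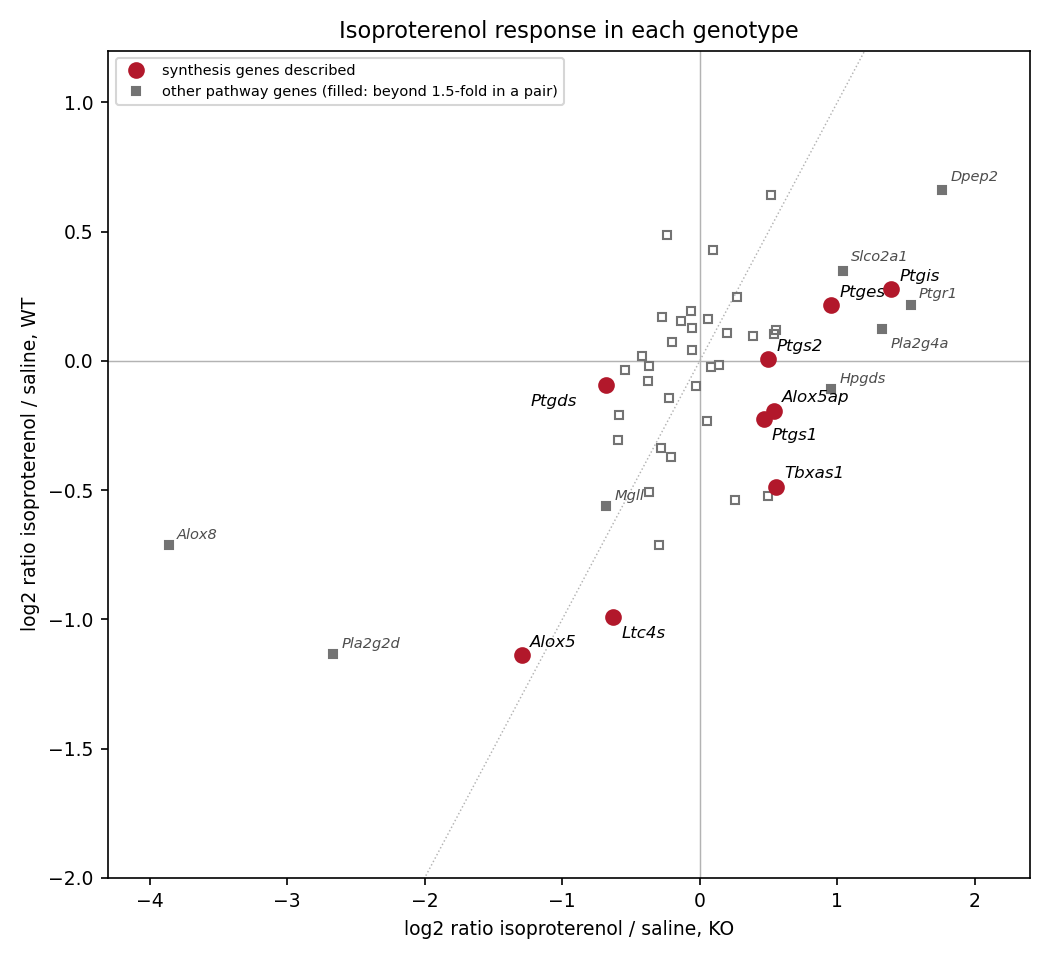
log2 ratio of isoproterenol to saline in KO (x axis) and in WT (y axis) for the 9 genes with enough reads (red) and for the other pathway genes tested (squares, filled where a pair was called); the dotted line marks equal ratios. Alox5 lies near that line, at −1.30 in KO and −1.14 in WT, while Ptgis at 1.39 in KO and 0.28 in WT and Pla2g4a, Dpep2, Ptgr1 and Slco2a1 lie to its right.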

How the data were processed

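Libraries were made with a TruSeq Stranded mRNA kit, per the labels' protocols. The submitters' processing notes name HTSeq and the builds GRCm38.p4 and mm10. The sources used here do not give the aligner, the annotation release or the strand setting. The authors deposited CPM for each gene and library, and the values show no scaling between libraries beyond the total. The WT and P2Y6 KO columns with no treatment in their header were read as saline. All values above 0 (100%) were whole multiples of 1 read within 0.01 reads, so reads were recovered. Ratios of reads, with 0.5 added and TMM scaling (edgeR 4.0.16; factors 1.096, 0.946, 0.966 and 0.999 for KO isoproterenol, WT isoproterenol, KO saline and WT saline), carry exact conditional 95% intervals, computed with scipy 1.17.1. The filter was a mean of 10 reads over the 4 libraries. The difference of responses has a normal 95% counting interval. The additive fit used limma 3.58.1 (trended variance) on log2(CPM + 1), and edgeR's quasi-likelihood test and DESeq2 1.42.0 were alternatives on recovered reads, with Benjamini-Hochberg adjustment at 0.05. Calculations were tested on simulated data. Without molecular identifiers, reads may repeat a molecule, so the intervals, and the floor of 3 reads, hold counting error alone.

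The named genes are the 10 synthesis genes, genes of 7 pathway lists that were called in a pair (or, where none was, the one with most reads), and the 3 nearest genes of each called synthesis gene. The prostanoid receptor that this rule names is not reported here. The genes and the lists were chosen with earlier results of these data known. Of the listed symbols Prxl2b was matched under its older name Fam213b. Positions and exon lengths are from GENCODE M21 (GRCm38), and promoter sequences from RefSeq.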

Additional observations from a re-analysis of the deposited data

Results flagged for a closer look

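Tbxas1 had isoproterenol ratios on opposite sides of no change in the 2 genotypes, although neither was called: the log2 difference of the isoproterenol responses, KO minus WT, was 1.04 (0.45 to 1.63), from 6.82 CPM with isoproterenol and 4.09 CPM with saline in KO, and 2.99 CPM with isoproterenol and 4.45 CPM with saline in WT. Each genotype holds 1 library per treatment, and the difference was not tested.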

How the results depend on the processing

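Of 45 ratios and differences of the 9 genes, all kept their sign and their side of the 1.5-fold threshold with DESeq2 size factors, with 1 read added and without the filter on low reads, and 35 did with total-count scaling, where 4 changed side and 6 uncalled values near 0 turned sign. Those 6 were KO against WT under isoproterenol for Ptges, Ltc4s (each log2 0.14, −0.07 with TMM) and Alox5 (0.07), KO against WT under saline (−0.04) and the difference of responses (0.11) for Alox5, and the WT pair for Ptgs2 (−0.07). With total-count scaling 3 of the 9 genes were called in KO against WT under isoproterenol (1 with TMM), adding Tbxas1 (log2 1.18) and Alox5ap (1.29). In the difference of responses 2 were called (1 with TMM), adding Tbxas1 (1.30), while Ptgds left the calls of the KO pair. Of all 14301 genes tested, 1156 were then called in KO against WT under isoproterenol (858 with TMM). For the difference of responses 1147 were called (796 with TMM), so calls rose over all genes too. The share of all calls for the difference that were higher became 92.6% (68.8% with TMM). The additive fit called 368 genes by treatment, against 647 with a pseudocount of 0.1 CPM, 965 without the filter, 22 with edgeR and 174 with DESeq2. By genotype it called 14, against 60, 195, 3 and 13. The causes of these shifts were not tested. No paired analysis was possible because each group held 1 library, with no replicates to pair beyond the genotype term of the additive fit, and for the same reason no replicate could be left out. Depth limited Ltc4s, Ptges and Ptgs2, with at most 46 reads in a library, and none of their intervals lay wholly beyond 1.5-fold.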
